A study of Homo sapiens with 6 samples.

Results

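The BCL2 family decides whether the mitochondria of a stressed cell are opened and the cell dies by apoptosis. The 10 family genes described here were taken by name from a table of 60663 genes: the survival genes BCL2, BCL2L1 and MCL1, the effector genes BAX and BAK1, and the BH3-only genes BCL2L11, BBC3, PMAIP1, BID and BIK. All 10 had enough counts to be tested, among 19836 tested genes. RNA was sequenced from 5637 cells, an established human bladder cancer line. Per the series description, all cells were transfected with dCas13b-FTO. Its dCas13b part is an RNA-guided Cas13b that binds but no longer cuts, and FTO is a demethylase that erases N6-methyladenosine (m6A) marks. In 3 libraries it was combined with a guide RNA against HRAS (HRAS guide), and in 3 libraries with a control guide RNA (control guide), and RNA was taken 48 h later. The sample titles name dCas13b without FTO, while the count columns name FTO. The labels do not state whether a group's 3 libraries are separate cultures, and p-values then measure no more than their spread, which may be technical. RNA levels were measured, and the proteins of the family were not analysed here.

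The survival proteins bind and restrain the other members. The effectors BAX and BAK1, once active, form pores in the outer mitochondrial membrane and let cytochrome c escape, which switches on caspases. The BH3-only proteins carry upstream stress signals: they occupy the survival proteins or activate the effectors directly. ERK, the last kinase of the RAS-RAF-MEK-ERK chain that HRAS feeds, limits BCL2L11 (BIM) through its transcription and its degradation, and it stabilises MCL1 protein. The series asks what follows when an m6A eraser is steered to HRAS transcripts.

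Library totals ran from 24968702 to 32283370 counts with the HRAS guide and from 28374402 to 30502171 with the control guide. Of 11 epithelial and urothelial markers, 10 averaged above 1 CPM (counts brought to the same library size, with TMM factors), led by keratins, with the uroplakin gene UPK3A near 0. Their sum was 8120 to 9070 CPM with the HRAS guide and 7890 to 10100 CPM with the control guide. The sum of 6 immune markers was 3.32 to 4.87 CPM with the HRAS guide and 2.70 to 4.06 CPM with the control guide, with nearly all of it from CD14 (75 to 127 counts) and with PTPRC and CD3E at 0 to 2 counts. The sum of 5 endothelial markers was at most 6.74 CPM in any library. That of 6 fibroblast markers, almost all from COL1A1, was 144 to 188 CPM with the HRAS guide and 156 to 213 CPM with the control guide. HRAS itself, the target of the guide, was measured at 199.9, 167 and 184 CPM with the HRAS guide and at 146, 230 and 169 CPM with the control guide (replicates 1, 2 and 3). Its log2 fold change was 0.01 ± 0.15 (SE), so no difference was detectable. FTO stood at 31.2 ± 0.24 CPM with the HRAS guide and 35.4 ± 3.03 CPM with the control guide (SD, n = 3; log2 fold change -0.19 ± 0.10, not called). The FTO groups did not overlap, like those of 8.81% of genes. Gene counts cannot tell FTO RNA of the transfected construct from that of the cells' own gene. Libraries differed along the GC content of genes in both groups: Spearman's rho across all genes between GC content and a library's deviation from the mean was 0.27, -0.49 and 0.06 in HRAS guide replicates 1 to 3 and -0.46, 0.61 and -0.21 in control guide replicates 1 to 3. Results are therefore also given after a correction for GC content and transcript length. Corrected, FTO stood at a log2 fold change of -0.196 ± 0.064, and its groups again did not overlap, like those of 12.2% of genes. It was not called (edgeR unadjusted p = 0.0108, adjusted p = 0.653), where 5.8% of genes had an unadjusted p under 0.05.

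None of the 10 BCL2 family genes differed detectably with the HRAS guide. Their log2 fold changes (HRAS guide minus control guide) had a median of -0.02, where that of all tested genes was -0.0013. Of the 10 genes, 9 lay between -0.05 and 0.05, with the 95% interval of each inside 0.764-fold to 1.26-fold. BBC3 (PUMA) stood at -0.34. After the GC and length correction the same 9 genes lay between -0.04 (MCL1) and 0.06 (BIK), and BBC3 at -0.28. By edgeR, 0 of 10 passed an adjusted p of 0.05, beside 0.0101% of all genes, and 0 passed an unadjusted p of 0.05, beside 3.34% of all genes. DESeq2 and limma-voom called 0 of 10 as well, DESeq2 beside 0.176% of the genes to which it gave an adjusted p, and edgeR after the GC and length correction called 0 of 10 beside 0.2% of all genes. In all 10 genes the CPM of the groups overlapped, where the groups did not overlap for 8.81% of genes. In bulk RNA, fewer cells with a transcript and less of it per cell cannot be told apart.

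**Figure D1:**
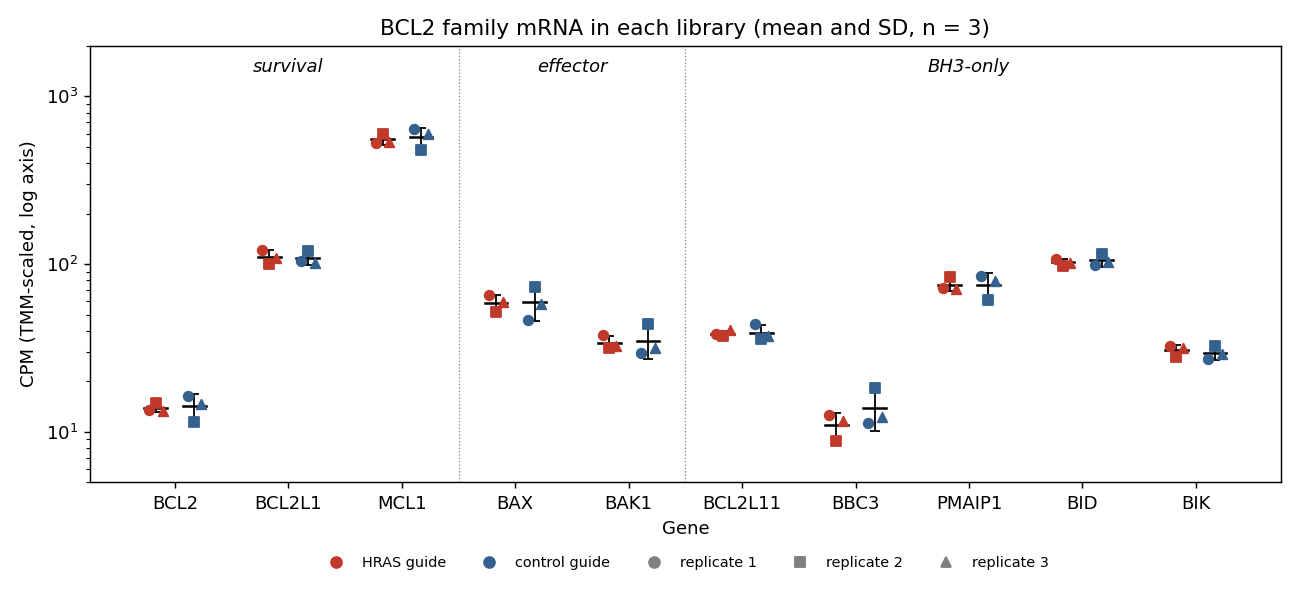
Level of each BCL2 family gene in every library, in TMM-scaled CPM on a log axis, with HRAS guide libraries (red) left of control guide libraries (blue). Symbols mark replicates 1 to 3, and bars the mean and SD (n = 3). The groups overlap for all 10 genes, from MCL1 at 481 to 639 CPM to BBC3 at 8.81 to 18.2 CPM.

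The family spanned a wide range of expression. Scaled to the longest annotated coding transcript, MCL1, which encodes a short-lived survival protein, had the highest level at 143 CPM per kb over the 6 libraries (122 to 163). BAX followed at 43.5 CPM per kb (34.4 to 53.8), then BCL2L1 (BCL-XL) at 42.0 (38.4 to 46.5), BID at 41.6 (39.3 to 46.1), PMAIP1 (NOXA) at 38.7 (31.1 to 43.9) and BIK at 31.6 (28.5 to 34.1). From BAX to BIK, neighbours in this order overlapped across libraries. BAK1 came next at 15.6 CPM per kb (13.3 to 19.8), below all of them. BCL2L11 at 7.39 CPM per kb (6.82 to 8.36) and BBC3 at 6.78 (4.79 to 9.92) overlapped each other. BCL2 was lowest at 1.88 CPM per kb (1.53 to 2.20), so among BCL2, BCL2L1 and MCL1 the founding gene of the family contributed least RNA. Which transcripts these cells use is not known from gene counts: scaled to the median coding transcript, BCL2L1 moved to 120 and BAX to 109 CPM per kb, BCL2L11 to 25.4, above BAK1 at 16.1, and MCL1 stayed first and BCL2 last.

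Among the survival genes, MCL1 (ENSG00000143384, GRCh38 chromosome 1, 150574551 to 150579738, minus strand) stood at 529, 599 and 536 CPM in replicates 1 to 3 of the HRAS guide, against 639, 481 and 593 CPM in replicates 1 to 3 of the control guide. The HRAS guide libraries all lay between the lowest and the highest control library. The log2 fold change was -0.04 ± 0.11, with a 95% interval of -0.28 to 0.20, or 0.824-fold to 1.15-fold. BCL2L1 (chromosome 20, 31664452 to 31723989, minus strand) stood at 121, 100.2 and 109 CPM with the HRAS guide and at 104, 120 and 102 CPM with the control guide. Its log2 fold change was 0.02 ± 0.10, with a 95% interval of -0.21 to 0.25. BCL2 (chromosome 18, 63123346 to 63320128, minus strand) stood at 13.5, 14.8 and 13.3 CPM with the HRAS guide and at 16.4, 11.4 and 14.7 CPM with the control guide. Its log2 fold change was -0.03 ± 0.14 (95% interval -0.35 to 0.28). The SD was 38.7 CPM with the HRAS guide and 81.4 CPM with the control guide for MCL1, and 0.799 CPM with the HRAS guide and 2.55 CPM with the control guide for BCL2. An antisense gene, ABALON, covers 43% of the annotated exon sequence of BCL2L1, and since the strand setting of the counts is not known its reads cannot be told apart there. It was counted at 0.85 ± 0.25 CPM with the HRAS guide and 0.68 ± 0.34 CPM with the control guide (SD, n = 3).

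Of the effector genes, BAX (ENSG00000087088, chromosome 19, 48954815 to 48961798, plus strand) stood at 65.3, 51.7 and 59.5 CPM in replicates 1 to 3 of the HRAS guide and at 46.7, 73.1 and 58.0 CPM in replicates 1 to 3 of the control guide. Control guide replicates 1 and 2 were its lowest and highest libraries. The log2 fold change was -0.01 ± 0.16, with a 95% interval of -0.36 to 0.34. BAK1 (chromosome 6, 33572547 to 33580293, minus strand) stood at 37.7, 31.4 and 32.4 CPM with the HRAS guide and at 29.5, 43.7 and 31.8 CPM with the control guide. Its log2 fold change was -0.05 ± 0.15 (95% interval -0.39 to 0.29). GENCODE lists the processed pseudogenes BAK1P1 and BAK1P2, with which BAK1 may share reads. Control guide replicate 2 was the highest library of both effectors, and without it the log2 fold change was 0.17 for BAX and 0.14 for BAK1, neither called.

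BCL2L11, whose RNA ERK signalling is known to hold down and FOXO factors to raise, and BBC3, which differed most, are shown with their promoters from RefSeq on GRCh38.p14, as the 250 bases before the start annotated in RefSeq. The gene coordinates given here are from GENCODE, whose starts differ. By these the BCL2L11 window lies inside the gene, and the BBC3 window partly inside it. RefSeq windows matched 8 of the 10 genes by symbol, and MCL1 and BIK were not matched. Letters searched on both strands were TGANTCA (AP-1), TGTTTAC (FOXO), GCGNGGGCG (EGR1) and GGGGCGGGG (a GC box), and capitals mark a match. Across 35116 promoters of the same length, 6.57%, 2.98%, 8.41% and 15.1% hold these letters.
BCL2L11 promoter, chr2:111120664-111120913, plus strand: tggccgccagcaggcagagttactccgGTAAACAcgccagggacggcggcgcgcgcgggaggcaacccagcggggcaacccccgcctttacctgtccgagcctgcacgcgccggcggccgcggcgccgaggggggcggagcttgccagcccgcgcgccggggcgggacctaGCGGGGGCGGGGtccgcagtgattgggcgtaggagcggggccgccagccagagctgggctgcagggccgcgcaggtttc
BBC3 promoter, chr19:47232668-47232917, minus strand: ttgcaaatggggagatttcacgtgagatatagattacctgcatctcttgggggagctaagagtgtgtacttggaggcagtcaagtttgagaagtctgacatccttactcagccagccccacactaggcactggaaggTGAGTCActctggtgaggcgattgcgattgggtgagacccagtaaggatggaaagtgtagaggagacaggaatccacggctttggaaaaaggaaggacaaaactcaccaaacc
The BCL2L11 window has a GC content of 76.8% and holds 1 FOXO match, in its first stretch of capitals, and 1 EGR1 match that overlaps 1 GC box, in its second. The BBC3 window has a GC content of 49.2% and holds 1 AP-1 match. A match describes letters and is not a bound site, and the absence of one says only that these letters are not in this window.

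The level of BCL2L11 varied by 1.22-fold from the lowest to the highest library, within a family range of 1.17-fold (BID) to 2.07-fold (BBC3). After the correction it varied by 1.21-fold, within a range of 1.08-fold (MCL1 and BIK) to 1.54-fold (BBC3). BCL2L11 (ENSG00000153094, chromosome 2, 111119378 to 111168447, plus strand) stood at 38.1, 37.1 and 40.3 CPM in replicates 1 to 3 of the HRAS guide, against 43.7, 35.7 and 37.1 CPM in replicates 1 to 3 of the control guide. The HRAS guide libraries fell inside the control range. The means were 38.5 ± 1.64 CPM with the HRAS guide and 38.8 ± 4.29 CPM with the control guide (SD, n = 3). The log2 fold change was -0.01 ± 0.11, with a 95% interval of -0.25 to 0.23, so these libraries leave room for a change between 0.841-fold and 1.17-fold. The GC and length correction gave -0.02 ± 0.08. An opposite-strand RNA gene, MIR4435-2HG, overlaps 10.9% of its exon sequence and was counted at 59.9 ± 1.29 CPM with the HRAS guide and 54.9 ± 4.74 CPM with the control guide (log2 fold change 0.13 ± 0.10, not called). The ratio of BCL2L11 to MCL1, each per kb, was 0.0541, 0.0466 and 0.0566 with the HRAS guide and 0.0514, 0.0558 and 0.0470 with the control guide, and the groups overlapped.

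The largest difference in the family was that of BBC3 (ENSG00000105327, chromosome 19, 47220822 to 47232766, minus strand), a BH3-only gene induced by FOXO factors. It stood at 12.6, 8.81 and 11.6 CPM in replicates 1 to 3 of the HRAS guide, against 11.2, 18.2 and 12.2 CPM in replicates 1 to 3 of the control guide. HRAS guide replicate 2 was the lowest library and control guide replicate 2 the highest, and the other 4 libraries lay between 11.2 and 12.6 CPM with the groups mixed. The log2 fold change was -0.34 ± 0.20, with a 95% interval of -0.78 to 0.10 (edgeR unadjusted p = 0.117, adjusted p = 1). Corrected for GC content and length, BBC3 stood at 11.9, 9.83 and 11.5 CPM with the HRAS guide and at 12.7, 15.1 and 12.6 CPM with the control guide. The corrected groups did not overlap, as was so for 12.2% of all genes. The corrected log2 fold change was -0.28 ± 0.11, with a 95% interval of -0.52 to -0.048, and it did not pass over all genes (edgeR unadjusted p = 0.0226, adjusted p = 0.732), where 5.8% of genes had an unadjusted p under 0.05. Without control guide replicate 2 the uncorrected value was -0.10, and without HRAS guide replicate 2 it was -0.20. BBC3 and BCL2 had the fewest counts of the family, 258 to 378 with the HRAS guide and 325 to 503 with the control guide for BBC3, and 335 to 434 with the HRAS guide and 315 to 475 with the control guide for BCL2.

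No difference was detectable in the remaining BH3-only genes. PMAIP1, which mainly binds MCL1, stood at 72.3, 83.3 and 70.9 CPM in replicates 1 to 3 of the HRAS guide and at 85.5, 60.7 and 79.4 CPM in replicates 1 to 3 of the control guide (log2 fold change 0.0060 ± 0.13, 95% interval -0.29 to 0.30). BID, which caspase-8 cuts to link death receptors to mitochondria, stood at 107, 98.0 and 102 CPM with the HRAS guide and at 98.3, 115 and 102 CPM with the control guide (log2 fold change -0.04 ± 0.09, 95% interval -0.24 to 0.16). BIK stood at 32.4, 27.97 and 31.4 CPM with the HRAS guide and at 27.2, 32.5 and 29.2 CPM with the control guide (log2 fold change 0.05 ± 0.11, 95% interval -0.20 to 0.29). In each of these genes the groups overlapped. BID and BIK lie on chromosome 22, at 17734138 to 17774770 and 43110748 to 43129712, and PMAIP1 on chromosome 18, at 59899948 to 59904306.

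**Figure D2:**
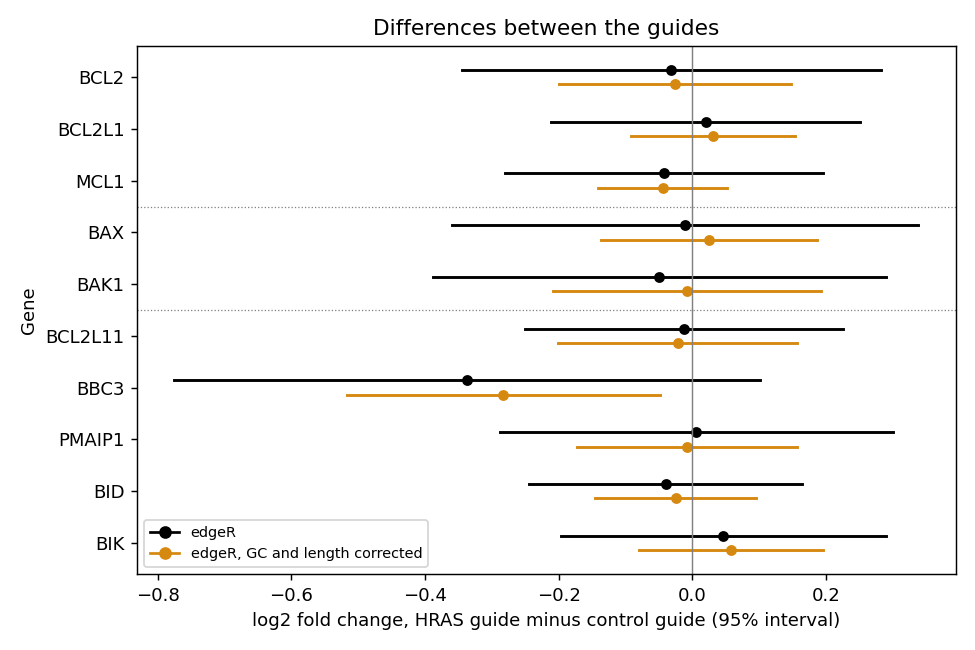
Log2 fold change of each gene, HRAS guide minus control guide, with its 95% interval (horizontal axis), before (black) and after (orange) the correction for GC content and length. Only the corrected interval of BBC3, -0.52 to -0.048, leaves out 0, and it did not pass after adjustment over all genes.

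By role, the survival genes had a median log2 fold change of -0.03 (1 of 3 positive), the effectors -0.03 (0 of 2 positive) and the BH3-only genes -0.01 (2 of 5 positive). After the correction these medians were -0.03, 0.0085 and -0.02. A summed level in CPM per kb of longest coding transcript gave a view of the balance within each library. The survival genes summed to 185 ± 6.77 with the HRAS guide and 189 ± 17.5 with the control guide, the effectors to 58.6 ± 6.42 with the HRAS guide and 59.5 ± 13.1 with the control guide, and the BH3-only genes to 125 ± 2.69 with the HRAS guide and 127 ± 1.01 with the control guide (SD, n = 3 each). The 7 death-promoting genes over the 3 survival genes gave a ratio of 1.06, 0.911 and 1.01 in HRAS guide replicates 1 to 3 and of 0.851, 1.19 and 0.955 in control guide replicates 1 to 3. The means were 0.994 ± 0.076 with the HRAS guide and 0.999 ± 0.174 with the control guide, so the groups differed by far less than the libraries within a group. MCL1 held most of the survival sum, and the ratio is one of RNA, not of protein.

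**Figure D3:**
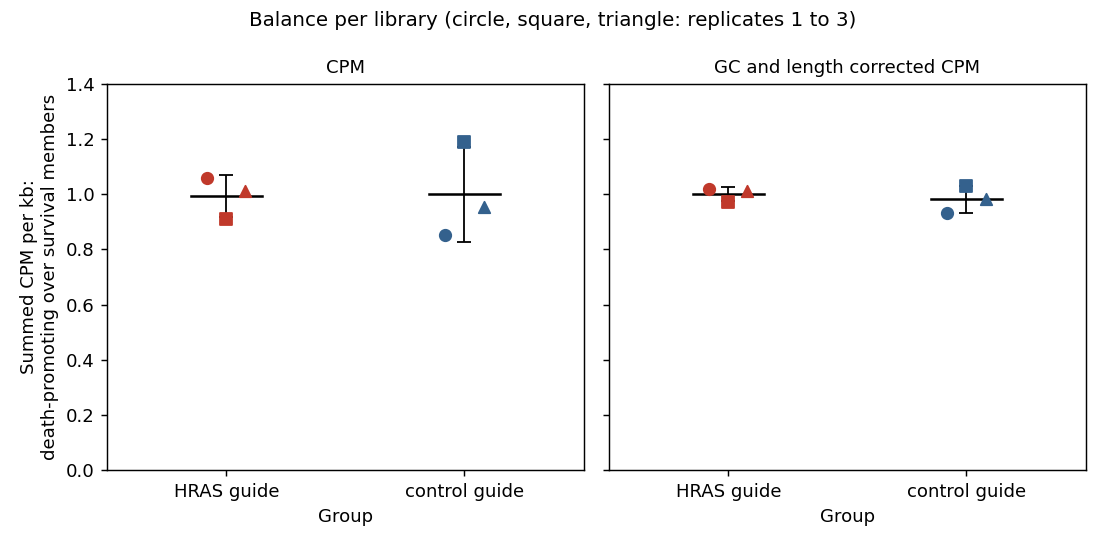
Ratio of the summed levels (CPM per kb) of the 7 death-promoting to the 3 survival genes in each library (vertical axis, from 0), with HRAS guide left of control guide, before (left panel) and after (right panel) the GC and length correction. Bars are mean and SD (n = 3). The control guide libraries range from 0.851 to 1.19 before the correction and from 0.932 to 1.03 after it.

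Deviations of these genes in single libraries ran along GC content to differing degrees, and the cause was not tested. The survival genes BCL2 and MCL1 and the BH3-only gene PMAIP1 have the lowest transcript GC content (44.7%, 45.1% and 45.6%), and BAK1, BAX and BBC3 the highest (58.8%, 60.6% and 64.4%). In control guide replicate 2, BCL2, MCL1 and PMAIP1 lay 0.29, 0.22 and 0.30 below their own 6-library means on the log2 scale, while BAK1, BAX and BBC3 lay 0.36, 0.32 and 0.58 above theirs. In control guide replicate 1 the same genes went the other way, with BCL2 at 0.24 and BAX at -0.32. Spearman's rho across the 10 genes between GC content and this deviation was 0.77, -0.94 and 0.08 in HRAS guide replicates 1 to 3 and -0.87, 0.92 and -0.48 in control guide replicates 1 to 3. These are descriptions over 10 genes that share each library. The ratio of death-promoting to survival RNA was highest in control guide replicate 2 and HRAS guide replicate 1, whose trends over all genes were the most positive, and lowest in control guide replicate 1 and HRAS guide replicate 2, whose trends were the most negative. The correction narrowed the spread: the pooled SD within groups on the log2 scale went to 0.040 for MCL1 after the correction, against 0.166 before it, and to 0.109 for BAX, against 0.258. It stayed at 0.118 for BCL2L11, with a GC content of 50.5%, and went to 0.064 for BID (54.1%), against 0.0952. After the correction, rho among the 10 genes was still 0.81 in control guide replicate 2, -0.66 in HRAS guide replicate 2 and -0.56 in control guide replicate 1. It was 0.33 and -0.12 in HRAS guide replicates 1 and 3, and -0.18 in control guide replicate 3. Corrected BBC3 was highest in control guide replicate 2 and lowest in HRAS guide replicate 2.

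**Figure D4:**
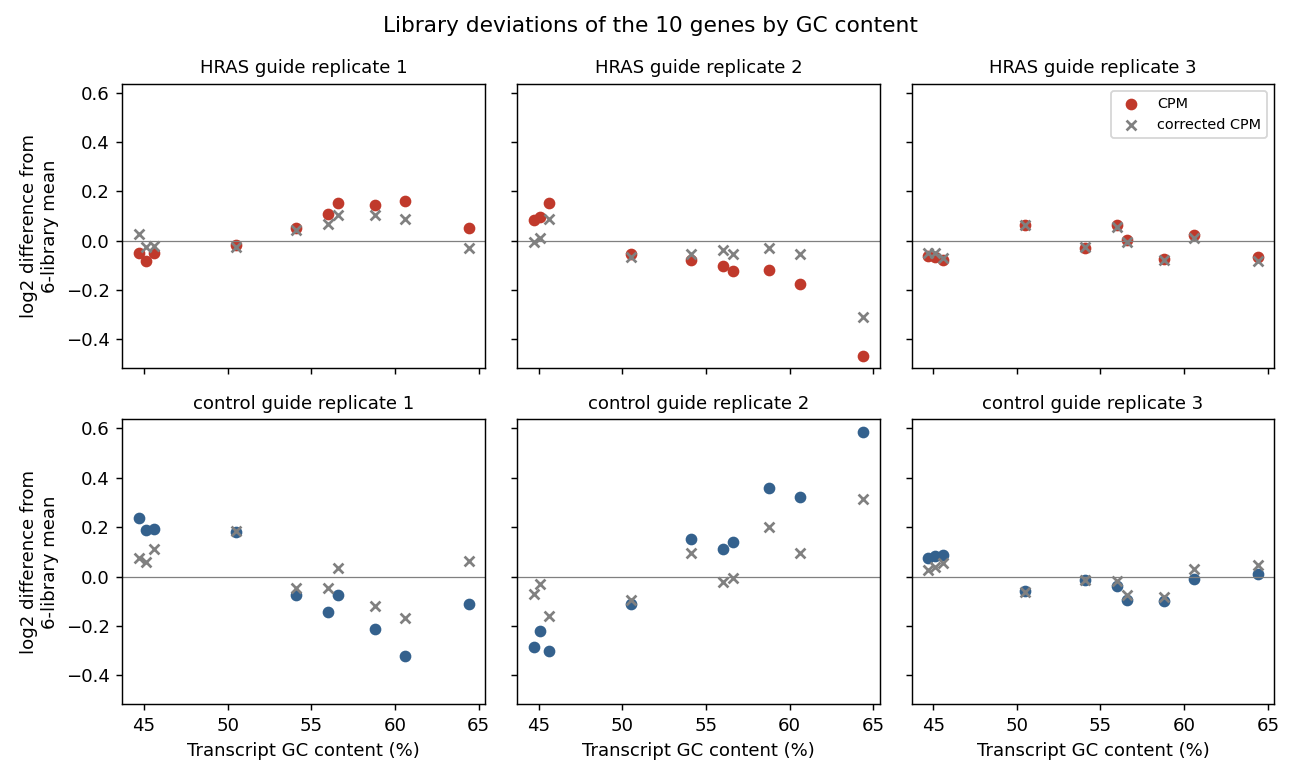
Deviation of each of the 10 genes from its 6-library mean (vertical axis, log2) against its median transcript GC content (horizontal axis, %), in a panel per library, HRAS guide above control guide. Filled points are CPM and crosses corrected CPM. The points fall with GC content in HRAS guide replicate 2 and control guide replicate 1 and climb in control guide replicate 2 and HRAS guide replicate 1.

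In the wider death machinery, too, no gene was called. Of 13 other BCL2 family genes, 12 were tested (BCL2L14 was too low), 0 passed in edgeR in either direction, 0 at an unadjusted p under 0.05 and 0 in DESeq2, and the median log2 fold change was -0.0078. The smallest p values belonged to BCL2L10 (-0.83 ± 0.41) at only 0.32 ± 0.14 CPM with the HRAS guide and 0.58 ± 0.10 CPM with the control guide, the survival gene BCL2A1 (-0.25 ± 0.18) and the survival gene BCL2L2 (0.13 ± 0.11). The BCL2L10 groups did not overlap before or after the correction, like those of 8.81% and 12.2% of genes. Corrected, BCL2L2 stood at 0.16 ± 0.07 (edgeR unadjusted p = 0.0413, adjusted p = 0.821), where 5.8% of genes had an unadjusted p under 0.05. None of 15 genes of the mitochondrial death pathway passed by edgeR, 0 had an unadjusted p under 0.05 and DESeq2 called 0, with a median of 0.0018. CYCS, which encodes cytochrome c (0.13 ± 0.08), the initiator caspase gene CASP9 (-0.15 ± 0.13) and the nuclease gene ENDOG (-0.16 ± 0.18) had the smallest p. Of 7 inhibitors of apoptosis 6 were tested (BIRC7 was too low) and 0 passed in edgeR (median -0.02), with BIRC5, which encodes survivin, at -0.08 ± 0.09, NAIP at 0.22 ± 0.41 and BIRC6 at -0.07 ± 0.18. None of 10 death receptor genes passed in edgeR (median -0.03). CASP10, an initiator caspase gene, stood at 10.3 ± 0.13 CPM with the HRAS guide and 12.1 ± 0.78 CPM with the control guide (SD, n = 3; log2 fold change -0.23 ± 0.11, edgeR unadjusted p = 0.0553). The CASP10 groups did not overlap before the correction, like those of 8.81% of genes, or after it, like those of 12.2%. Corrected, CASP10 stood at -0.25 ± 0.08 (95% interval -0.44 to -0.061). Its corrected edgeR unadjusted p was 0.014, where 5.8% of genes fell under 0.05. With an adjusted p of 0.676 in that test, CASP10 was not called. CASP8 (-0.06 ± 0.12) and the TRAIL receptor gene TNFRSF10B (-0.04 ± 0.08) followed. Before the correction, in the last 2 lists too, 0 genes had an unadjusted p under 0.05 and DESeq2 called 0.

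On a list of 15 genes driven by ERK, each log2 fold change was below 0, from -0.64 (FOSL1) to -0.0066 (CCND1), with a median of -0.30, beside 10021 of 19836 genes tested below 0. After the GC and length correction 14 were below 0 and CCND1, which encodes cyclin D1, stood at 0.03. In the edgeR test 0 of 15 passed over all genes, 7 were lower at an unadjusted p under 0.05, beside 1.7% of all genes, and 8 did not overlap between the groups, beside 4% of all genes that were lower without overlap. DESeq2 called 0.176% of the genes to which it gave an adjusted p, and 3 genes of this list, all lower. After the GC and length correction 6 were lower past the threshold, beside 0.19% of all genes. This list, like the others here, was chosen with earlier results of these data known, so the shares describe it and do not test it. The transcription factor gene EGR1 stood at 822 ± 11.6 CPM with the HRAS guide and 1090 ± 9.50 CPM with the control guide (SD, n = 3; log2 fold change -0.41 ± 0.06). FOSL1, which encodes an AP-1 subunit, had a log2 fold change of -0.64 ± 0.10, and DUSP5, which encodes an ERK phosphatase, one of -0.53 ± 0.09. The list was uneven. Its median was the value of ETV5 (-0.30 ± 0.25), at 30 to 48 counts with the HRAS guide and 40 to 64 with the control guide. Besides the 7 lower genes, SPRY2 (-0.04 ± 0.11), SPRED1 (-0.03 ± 0.12) and PHLDA1 (-0.0067 ± 0.10) lay near 0. Among these samples, then, BCL2L11 at -0.01 and MCL1 at -0.04 stood beside an uneven ERK list with a median of -0.30. Whether the RNA of BCL2L11 answers to differences of the sizes on this list in these cells was not tested.

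Of 21 regulators of the family's transcription or turnover, 0 passed in edgeR and 3 were lower at an unadjusted p under 0.05, beside 1.7% of all genes. Their log2 fold changes were below 0 for 16 and above 0 for 5, beside 10021 of 19836 genes tested below 0. The median was -0.07, beside -0.00135 for all genes tested. After the correction 17 were below 0, beside 9753 of 19489 genes. The 3 at an unadjusted p under 0.05 were JUN, an AP-1 subunit (-0.45 ± 0.07), MYC (-0.29 ± 0.08) and the stress factor gene DDIT3, also called CHOP (-0.32 ± 0.13). After the correction the MYC groups overlapped. BTRC (-0.24 ± 0.07) and TP73 (-0.14 ± 0.05) then also had an edgeR unadjusted p under 0.05, as did 5.8% of all genes, and were not called. DESeq2 called JUN, beside 0.176% of the genes to which it gave an adjusted p, and so did the corrected edgeR fit, beside 0.19% of all genes called lower. It stood at 573 ± 19.1 CPM with the HRAS guide and 780.0 ± 8.64 CPM with the control guide (SD, n = 3). FOXO3, a factor that induces BCL2L11 and BBC3, was not called and stood at 115 ± 9.04 CPM with the HRAS guide and 124 ± 17.3 CPM with the control guide (SD, n = 3).

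**Figure D5:**
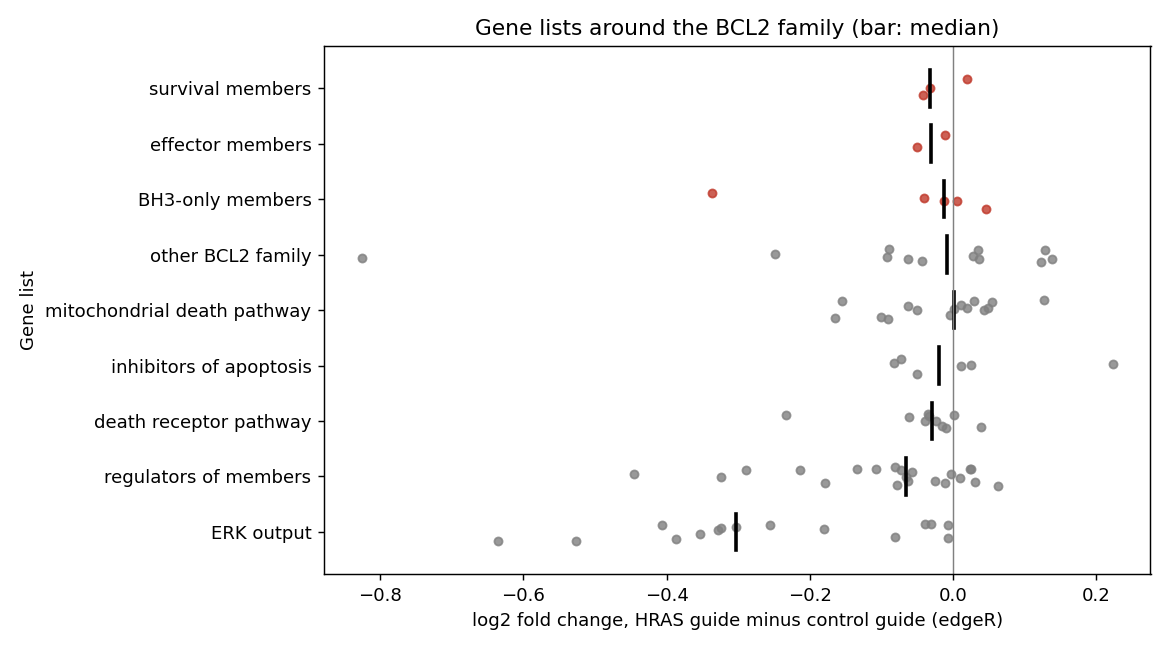
Log2 fold change (HRAS guide minus control guide, edgeR; horizontal axis) of each tested gene, by list, with a bar at the list's median. The 10 family genes are red. The ERK output list has its median at -0.30, and the survival, effector and BH3-only genes at -0.03, -0.03 and -0.01.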

How the data were processed

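The authors deposited whole-number counts per Ensembl gene, not normalized, in a table of 60664 rows, of which 1 held no values and was left out. Per the submitters' processing notes, HISAT2, StringTie and DESeq2 were used with hg38. Which counting tool, annotation release and strandedness applied is not given in the sources used here. Columns were matched to samples by guide and replicate number. Gene symbols were looked up by identifier, and coordinates, lengths and median transcript GC content taken from GENCODE release 29 (GRCh38, the same assembly as hg38). Genes were filtered with filterByExpr and scaled by TMM, and the guides compared with the two-sided quasi-likelihood F-test of edgeR 4.0.16 (R 4.3.3) on group alone, with Benjamini-Hochberg adjustment over all genes at a threshold of 0.05. Fold changes, on the log2 scale, set the HRAS guide over the control guide and carry an SE from the F statistic, with 95% intervals. The correction fitted each library's log2 CPM (prior count 2) to splines of GC content and log10 length (5 and 4 degrees of freedom) and entered the fit as offsets for 19489 genes. DESeq2 1.42.0, limma-voom (limma 3.58.1), other scalings and filters, the replicate number as a block and each library left out were alternatives. No 2 libraries agreed within sampling noise (chi-square per degree of freedom 3.01 to 38.1). The 10 genes and the lists were chosen with earlier results of these data known; 1 of these lists and 1 further gene are not reported here. Named are the 10 genes, HRAS and FTO, and the 3 list members of smallest p. Others (ABALON, MIR4435-2HG, FOXO3, CCND1, ETV5, SPRY2, SPRED1, PHLDA1, BTRC, TP73, CD14, BMF, HRK, ADAMTSL4-AS1) were added later.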

Additional observations from a re-analysis of the deposited data

How the results depend on the processing

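None of the 10 genes passed the threshold under any alternative run (adjusted p at least 0.507), but with values so near 0 the sign was not stable. BAX was positive with limma-voom (0.0062), library totals alone (0.015), the replicate block (0.0063), the GC and length correction (0.025) and both together (0.029). BCL2L11 was positive with library totals alone (0.0093), and PMAIP1 negative with the correction (-0.0079) and with the replicate block added to it (-0.0043). With each library left out in turn the log2 fold change ran from -0.16 to 0.085 for BCL2, -0.054 to 0.099 for BCL2L1, -0.15 to 0.043 for MCL1, -0.16 to 0.17 for BAX, -0.16 to 0.14 for BAK1, -0.068 to 0.078 for BCL2L11, -0.47 to -0.096 for BBC3, -0.13 to 0.10 for PMAIP1, -0.091 to 0.028 for BID, -0.016 to 0.12 for BIK and -0.13 to 0.22 for HRAS. List medians then ran from -0.15 to 0.044 for the survival genes, -0.16 to 0.15 for the effectors, -0.068 to -0.0033 for the BH3-only genes, -0.026 to 0.0032 for the other BCL2 family genes, -0.036 to 0.014 for the mitochondrial death pathway, -0.090 to 0.12 for the inhibitors of apoptosis, -0.041 to 0.0021 for the death receptor genes, -0.13 to -0.043 for the regulators and -0.32 to -0.23 for ERK output. BBC3 stayed negative under every alternative. Over all genes, edgeR called 2, DESeq2 25, limma-voom 1, DESeq2 size factors 1, no low-count filter 57, a filter of 1 CPM 1, the replicate block 1, the correction 39 and the block with the correction 6, and 1 to 24 with a library left out (24 without control guide replicate 2, 4 without control guide replicate 1). The cause of these shifts was not tested. Before the correction, deviations of same-numbered libraries from their group means correlated at -0.19, -0.29 and -0.057. These values carry each library's GC trend, so they cannot show whether same-numbered libraries were prepared together. BBC3 and BCL2 had the fewest counts (258 to 503 and 315 to 475), and the part of depth in their errors was not tested.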

Other observations

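BMF, a further BH3-only gene, stood at 65.4 ± 2.88 CPM with the HRAS guide and 67.4 ± 1.94 CPM with the control guide (SD, n = 3; log2 fold change -0.04 ± 0.09, not called). HRK, a BH3-only gene best known in neurons, was low, at 2.39 ± 0.31 CPM with the HRAS guide and 2.16 ± 0.37 CPM with the control guide. ADAMTSL4-AS1, a same-strand RNA gene whose exons touch those of MCL1 over 2 bases, was lower in all 3 HRAS guide libraries, at 0.93 ± 0.08 CPM against 1.48 ± 0.14 CPM with the control guide (log2 fold change -0.66 ± 0.23, not called), while MCL1 stood at -0.04. Of all genes, 4% were lower without overlap. ADAMTSL4-AS1 had only 23 to 33 counts with the HRAS guide and 41 to 45 with the control guide. Its edgeR unadjusted p was 0.0156, where 3.34% of all genes fell under 0.05. These genes were chosen after their values were seen.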
